A study of Oryza sativa Japonica Group with 9 samples.

Results

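Seedlings of the OsbZIP23 mutant under drought were compared with seedlings of ZH11 (Zhonghua 11, a Japonica rice that served as the wild type) under the same stress. The comparison was chosen by genotype and stress status as labelled and uses 2 of the 9 samples of the series, 1 RNA library for each side. Of the 55986 genes in the tables, 20251 entered the comparison, having reached 10 reads on one side or both. The mutant group carries the osbzip23 mutation in the ZH11 background, and the ZH11 group carries no introduced change. Both were soil-grown, stressed at the 4-leaf stage until every leaf had rolled, and sampled as above-ground tissue. Unstressed mutant and ZH11 seedlings and an OsbZIP23 overexpressor, each 1 library per condition, serve below as side values. The labels do not say what kind of mutation the mutant carries, which promoter drives the overexpressor or how many seedlings a library pools. With no replicate in any group, no difference below was tested. "Higher" and "lower" describe these libraries, and a 2-fold ratio is used only as a mark for counting.

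OsbZIP23 is a basic leucine zipper (bZIP) transcription factor of the ABF type. Factors of this type bind abscisic acid (ABA) response elements in promoters after SnRK2 kinases phosphorylate them, and the kinases themselves are held inactive by clade A protein phosphatases 2C (PP2C) until ABA receptors bind the hormone. Known outputs in drying rice leaves include late embryogenesis abundant (LEA) proteins and dehydrins, enzymes of proline and sugar metabolism, and the PP2C genes themselves, which close a feedback loop.

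The mutant drought library held 9.48 M reads and the ZH11 drought library 13.5 M, with 29340 and 33054 genes detected. The other 4 RNA libraries held 10.0 M to 12.2 M reads. Levels are given in CPM, read counts scaled to a common library size, after TMM, a trimmed-mean correction for library composition whose factors were 0.754 for mutant drought and 0.868 for ZH11 drought. Log2 ratios are mutant over ZH11 after adding 0.5 CPM to each level. The 95% intervals come from the reads alone, so they hold counting error alone: molecular identifiers were not used, and no plant-to-plant spread enters them. The tissue label was checked with a few defining genes: the leaf gene for Rubisco activase (Rca) stood at 2227 CPM in mutant drought and 1369 CPM in ZH11 drought, while the root genes RCc3 and Lsi2 had 0 reads in both. The meristem gene OSH1 had 1 read in each. A further leaf gene, RbcS LOC_Os12g17600 for the Rubisco small subunit, was far lower in both drought libraries than under normal growth, with values given below. The silicon channel gene Lsi1, known from rice roots, did have reads, 26.5 in mutant drought and 115.5 in ZH11 drought (log2 ratio -1.30).

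OsbZIP23 itself (LOC_Os02g52780) had 1127.5 reads in mutant drought against 5606 in ZH11 drought, or 158 against 479 CPM. The mutant level was thus 33.0% of the ZH11 level, 3.03-fold lower (95% counting interval 2.84 to 3.23), with a log2 ratio of -1.60. Transcript of the gene was therefore reduced and not absent in the library labelled mutant. Under normal growth the levels were 11.8 CPM in the mutant and 32.5 CPM in ZH11, a log2 ratio of -1.42. The mutant drought level lay above the ZH11 normal level of 32.5 CPM. The library labelled overexpressor drought stood at 457 CPM, not above the ZH11 drought level, so its label is not borne out by the gene's own transcript, and the overexpressor under normal growth stood at 1325 CPM. Values given below for overexpressor drought are those of the library so labelled.

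Across all 20251 genes the median log2 ratio was -0.01, and the 5th to 95th percentiles ran from -1.07 to 1.09. At least 2-fold higher in mutant drought were 1211 genes (5.98%) and at least 2-fold lower 1215 genes (6%), together 12% of the genes counted. At 4-fold the balance differed, with 159 genes higher and 76 lower. The balance also followed read depth. Among 4561 genes with at least 500 reads in the deeper of the pair, 247 were 2-fold higher and 87 lower. Among 6470 genes with 10 to 50 reads, 478 were higher and 671 lower. Genes with 10 or more reads on one side and 0 on the other were 24 for mutant drought and 56 for ZH11 drought, whose library was also the larger. The balance depended on scaling as well: with total reads alone in place of TMM, the median of all genes was -0.19, and genes higher made up 33% of the 2-fold genes against 49.9% with TMM. With the authors' FPKM (fragments scaled by transcript length and library size) the share was 38.2%.

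**Figure D1:**
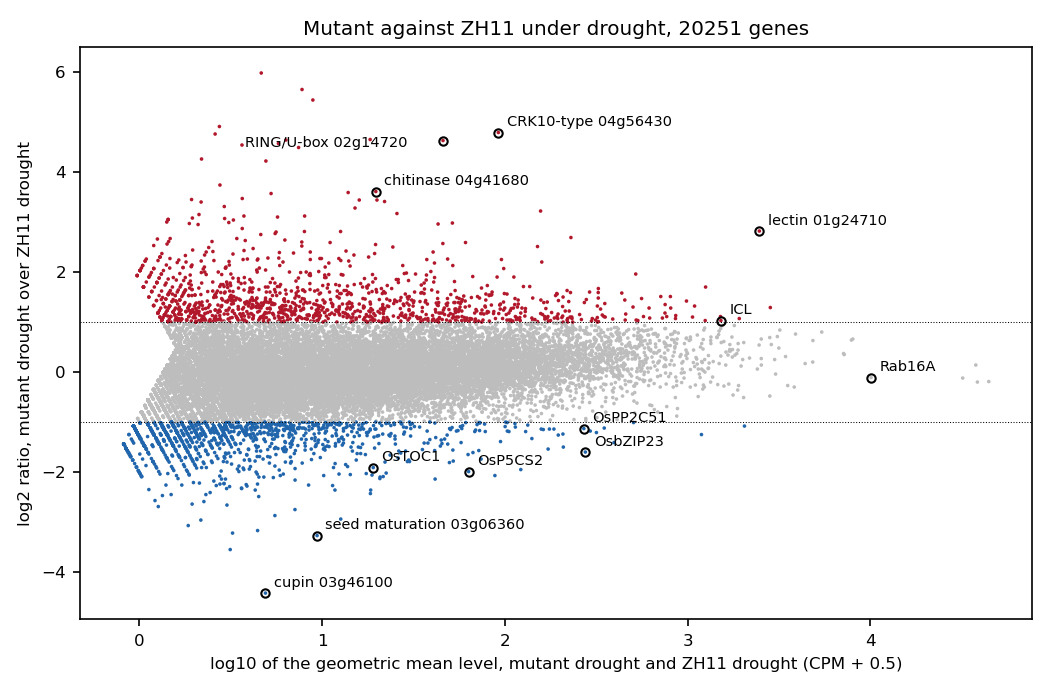
Log2 ratio of mutant drought over ZH11 drought (vertical axis) against the log10 geometric mean level of the same 2 libraries (horizontal axis, CPM + 0.5), 1 point per gene for 20251 genes. Red points are at least 2-fold higher and blue points at least 2-fold lower in mutant drought (dotted lines); circled genes are named, from the cupin LOC_Os03g46100 at -4.42 to the receptor kinase LOC_Os04g56430 at 4.79, with the dehydrin Rab16A near 0 at a high level.

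The PP2C feedback genes were the branch of the ABA pathway that lay lowest. All 9 clade A PP2C genes were below ZH11 with TMM and with DESeq2 size factors, with a median log2 ratio of -0.24 under TMM. Total-read scaling lowers ratios generally (median of all genes -0.19), so it could only take these genes further below. At least 2-fold lower were 3 of the 9, where 6% of all genes were, and none was 2-fold higher. OsPP2C08 (LOC_Os01g46760) had 16.1 CPM in mutant drought and 49.1 CPM in ZH11 drought, 3.04-fold lower (2.49 to 3.75). OsPP2C51 (LOC_Os05g49730) had 182 CPM in mutant drought and 400.1 CPM in ZH11 drought, 2.20-fold lower (2.06 to 2.34). OsPP2C49 (LOC_Os05g38290) had 53.6 against 110.5 CPM, a log2 ratio of -1.04 that became -0.99 with DESeq2 size factors. The remaining 6 lay within 2-fold, the nearest to ZH11 being OsPP2C53 at -0.06. The overexpressor drought library, at 97.3 CPM for OsPP2C08, 274 CPM for OsPP2C51 and 93.7 CPM for OsPP2C49, did not place all 3 on the same side of ZH11. OsPP2C08 and OsPP2C49 were also below ZH11 under normal growth, at log2 ratios of -0.57 and -0.81. OsPP2C51 was barely transcribed there, at 0.545 CPM in the mutant and 0.44 CPM in ZH11.

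Genes of the SnRK2 kinase family lay mostly the other way. Of 10 SnRK2 genes (SAPK1 to SAPK10), 7 were above ZH11 and 3 below, with a median of 0.36. SAPK7 (LOC_Os04g35240) was the single member past 2-fold, where 12% of all genes were 2-fold apart either way. It had 4.63 CPM in mutant drought and 2.05 CPM in ZH11 drought, on 33 and 24 reads. SAPK9 reached 165 against 87.1 CPM (log2 ratio 0.92). SAPK3 and SAPK4, at -0.78 and -0.77, were the lowest members. ABA receptors were little represented: 4 of 13 listed genes had 10 reads in either library, and all 4 lay within 2-fold (median 0.02, which is below 0 when total reads or FPKM are used).

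No relative of OsbZIP23 passed 2-fold with it. Of 8 ABF-type bZIP genes counted, OsbZIP23 was the single one past 2-fold, and the median was 0.34. OsbZIP12 had 466 CPM in mutant drought and 308 CPM in ZH11 drought (log2 ratio 0.60), OsbZIP46 had 56.4 against 36.8 CPM (0.61) and OsbZIP72 had 98.3 against 69.3 CPM (0.50). These are factors of the same clade, some of them known to act in rice drought tolerance. OsABI5 stood at 0.70, while OsbZIP40 and OsbZIP42 stood below ZH11 at -0.48 and -0.44. Of all genes counted, 12% were 2-fold apart either way, 5.98% higher and 6% lower. Among the wider set of 36 genes described as bZIP factors, 0 were 2-fold higher and 2 (5.56%) lower, OsbZIP23 being one. The other, LOC_Os11g05640, had 1.68 CPM in mutant drought, 8.46 CPM in ZH11 drought and 50.5 CPM in overexpressor drought.

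For ABA synthesis the 9-cis-epoxycarotenoid dioxygenases (NCED), which cleave the carotenoid precursor of the hormone, did not lie on one side of ZH11 as a family. OsNCED5 (LOC_Os12g42280) had 91.4 CPM in mutant drought, 35.0 CPM in ZH11 drought and 6.62 CPM in overexpressor drought, 2.61-fold higher in the mutant than in ZH11 (2.30 to 2.96). OsNCED4, reported elsewhere as a target of OsbZIP23, had 917 against 995 CPM (log2 ratio -0.12). OsNCED3 had 127 against 191 CPM (-0.59). Of the 8 synthesis genes counted, 1 (12.5%) was 2-fold higher and 0 were lower, where 5.98% of all genes were higher and 6% lower. OsNCED4 did differ under normal growth, where the mutant had 0.34 CPM and ZH11 3.45 CPM. The 3 ABA 8'-hydroxylase genes, which degrade the hormone, were all within 2-fold, OsABA8ox1 at 214 against 142 CPM.

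**Figure D2:**
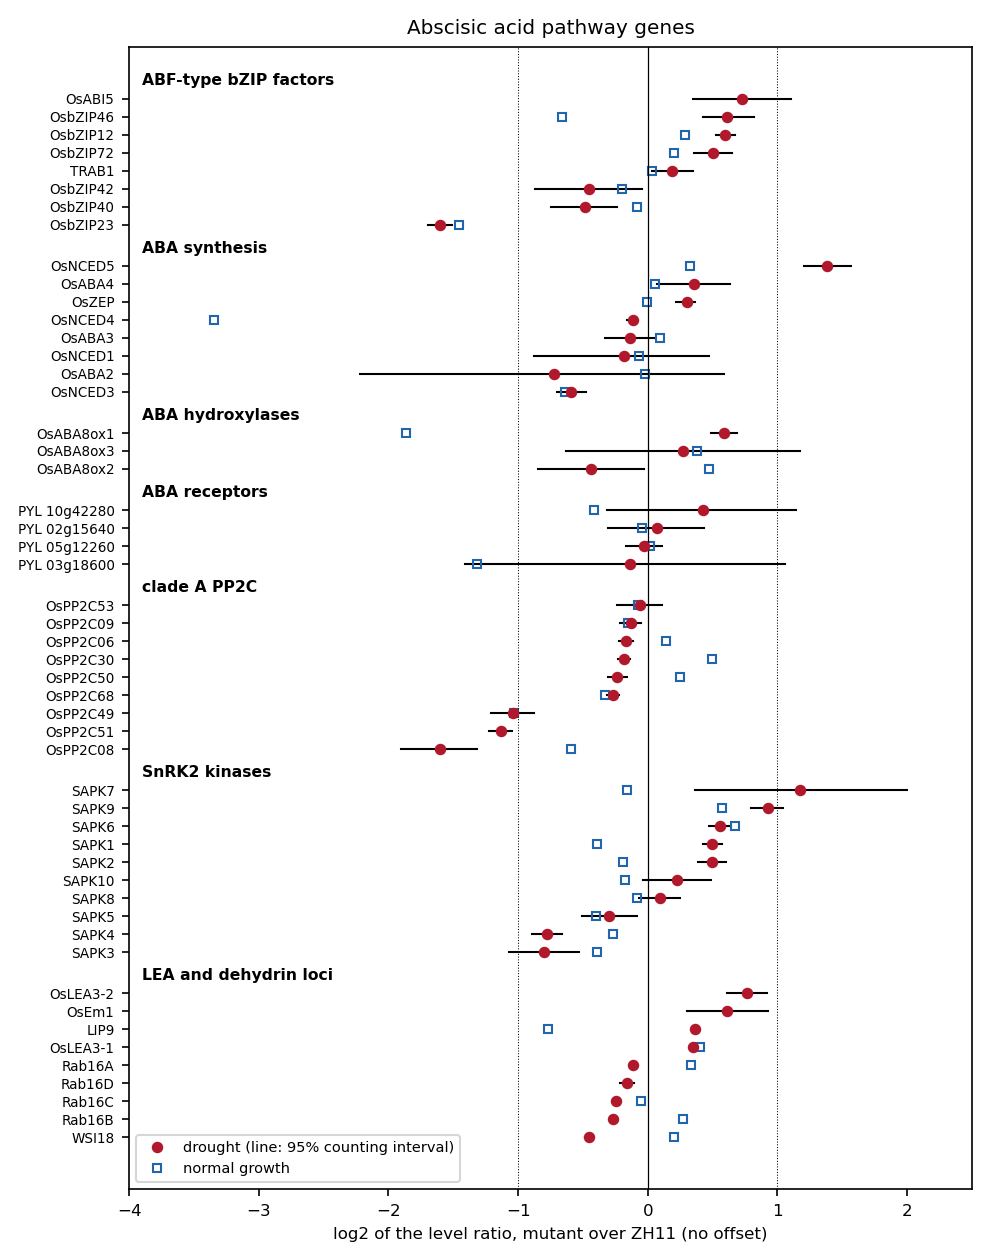
Log2 level ratio of mutant over ZH11 (horizontal axis, no offset) for each counted gene of the ABA pathway lists, one gene per line. Red points are drought with 95% counting intervals as lines, and open blue squares are normal growth where the gene had 10 reads there; OsbZIP23 and 3 PP2C genes lie left of the 2-fold line, and OsNCED5 and SAPK7 right of it.

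The classical dehydrins stayed close to ZH11. None of the 9 listed LEA and dehydrin genes was 2-fold apart, and their log2 ratios ran from -0.46 (WSI18) to 0.76 (OsLEA3-2), median -0.11. Rab16A had 9704 CPM in mutant drought and 10479 CPM in ZH11 drought, against 3.06 and 2.39 CPM under normal growth. OsLEA3-1 had 8113 against 6370 CPM, a log2 ratio of 0.35. Both genes thus stood far above their unstressed levels in the mutant library as in ZH11. Among genes matched on LEA or dehydrin descriptions, 5 of 47 (10.6%) were higher and 5 (10.6%) lower. Over all genes 5.98% were higher and 6% lower. LOC_Os06g21910, described as LEA 4-5, had 35.0 CPM in mutant drought and 111 CPM in ZH11 drought (-1.65). LOC_Os01g64470, an LEA hydroxyproline-rich glycoprotein, had 139 against 47.7 CPM (1.54). A further dehydrin, LOC_Os11g26570, was named after its values were seen: it had 1407 CPM in mutant drought, 2975 CPM in ZH11 drought and 3313 CPM in overexpressor drought, a mutant ratio of -1.08.

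Several genes with seed-type descriptions stood among the lowest of all. The cupin LOC_Os03g46100, of the family of seed storage globulins, was the lowest described gene with 100 reads, at 0.561 CPM in mutant drought and 22.2 CPM in ZH11 drought, 39.6-fold lower (15.3 to 147). Its level in overexpressor drought was 123 CPM, and under normal growth it was at most 0.0829 CPM in every library. LOC_Os03g06360, described as a seed maturation protein, had 2.52 CPM in mutant drought, 28.7 CPM in ZH11 drought and 128 CPM in overexpressor drought, 11.4-fold lower in the mutant than in ZH11 (7.09 to 19.4). A second seed maturation gene, LOC_Os06g23350, named after its values were seen, had 19.3, 86.8 and 246 CPM in the same order (-2.14). These 3 genes were picked for their low mutant ratios or after their values were seen. In them mutant drought was the lowest of the drought libraries and the library labelled overexpressor drought the highest. That order is not the order of OsbZIP23 transcript, which was 457 CPM in the library labelled overexpressor drought and 479 CPM in ZH11 drought. The pattern was not general for such descriptions. LOC_Os12g43140, also described as a seed maturation protein and also named after its values were seen, had 37.0 CPM in mutant drought. It had 9.74 CPM in ZH11 drought and 1.38 CPM in overexpressor drought (1.87). Over a list of seed maturation and storage descriptions assembled after these values had been seen, 6 of 34 genes (17.6%) were 2-fold higher and 7 (20.6%) lower. The median was 0.32, and over all genes 5.98% were higher and 6% lower.

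Proline metabolism differed on both sides of the pathway. OsP5CS2 (LOC_Os01g62900), for the enzyme that makes the proline precursor from glutamate, had 31.3 CPM in mutant drought, 126 CPM in ZH11 drought and 295 CPM in overexpressor drought, 4.03-fold lower in the mutant than in ZH11 (3.50 to 4.66). OsProDH (LOC_Os10g40360), for proline dehydrogenase, which degrades proline, had 21.9 CPM in mutant drought, 10.1 CPM in ZH11 drought and 3.95 CPM in overexpressor drought, 2.17-fold higher in the mutant (1.70 to 2.78). The other P5CS gene, OsP5CS1, was nearer ZH11 at 247 against 332 CPM (-0.43). The other members of the compatible solute list, for raffinose-type sugars and trehalose, all lay within 2-fold. So 1 of 9 genes (11.1%) was 2-fold higher and 1 (11.1%) lower, where 5.98% of all genes were higher and 6% lower. Under normal growth neither OsP5CS2 nor OsProDH showed the same difference, with log2 ratios of 0.29 and -0.09.

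Known drought and cold transcription factors lay mostly above ZH11, 16 of the 19 counted. Of these 19, 3 (15.8%) were 2-fold higher, 0 lower, and the median was 0.28, where 5.98% of all genes were higher and 6% lower. OsDREB1A (LOC_Os09g35030), a C-repeat binding factor best known from cold, had 30.8 CPM in mutant drought and 5.34 CPM in ZH11 drought, 5.73-fold higher (4.31 to 7.70). OsMYB2 (LOC_Os03g20090), a stress MYB factor, had 67.6 against 25.6 CPM (1.38). The zinc finger gene DST, a negative regulator of stomatal closure in rice, had 13 and 7 reads (1.08). SNAC1, a NAC factor of rice guard cells, had 2484 CPM in mutant drought and 1653 CPM in ZH11 drought (0.59), and OsNAC6 had 6024 against 3898 CPM (0.63). OsDREB2A was below ZH11 at 46.9 against 60.4 CPM (-0.36).

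Among whole transcription factor families, NAC and WRKY factors had the largest shares of higher members. Of 70 NAC factors 14 (20.0%) were 2-fold higher and 3 lower, with a median of 0.51. Of 61 WRKY factors 15 (24.6%) were higher and 1 lower, with a median of 0.45. Both medians were above 0 under every scaling tried. The NAC gene LOC_Os01g01430 had 9.11 CPM in mutant drought, 1.54 CPM in ZH11 drought and 0.494 CPM in overexpressor drought (2.24). The WRKY40-type gene LOC_Os06g44010, from a family with many members in immune signalling, had 15.4, 4.15 and 0.691 CPM in that order (1.77). The highest MYB gene, LOC_Os07g48870, had 29.2 against 6.33 CPM (2.12) and the highest bHLH gene, LOC_Os09g28210, 26.6 against 4.02 CPM (2.59). The other families were nearer the 5.98% of all genes that were higher. MYB genes numbered 8 higher (8.7%) and 2 lower of 92, AP2/ERF genes 5 (8.77%) and 1 of 57, and C2H2 zinc fingers 4 (9.09%) and 1 of 44. The homeobox list, matched on description words, also took in MYB-type genes such as OsLHY (LOC_Os08g06110). It numbered 13 higher (11.2%) and 5 lower of 116. The bHLH genes numbered 10 higher (15.2%) and 4 lower of 66, and bZIP genes 0 and 2 of 36.

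Genes for secreted defence proteins stood higher more often than any other list with at least 19 counted members. The group was assembled from descriptions after the values had been seen, so its counts are a description of these libraries. It holds chitinases and beta-1,3-glucanases, which cleave fungal cell wall polymers, osmotin and thaumatin-like proteins, germin-like proteins and the pathogenesis-related (PR) families. Of 175 genes matched, 83 had 10 reads in either drought library. Among these 43 (51.8%) were 2-fold higher, 3 (3.61%) lower, and the median log2 ratio was 1.08, or 0.87 with total reads. Over all genes 5.98% were higher and 6% lower. By family, 17 of 36 chitinases were 2-fold higher, 6 of 8 glucanases, 9 of 20 osmotin and thaumatin-like genes, 9 of 12 PR and CAP genes and 2 of 7 germin-like genes. Since whole seedlings above ground were sampled, more cells of a responding type and more RNA per cell cannot be told apart.

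The basic chitinase gene LOC_Os06g51060 had 1024 CPM in mutant drought and 264 CPM in ZH11 drought, 3.88-fold higher (3.72 to 4.05). A second basic chitinase, LOC_Os06g51050, had 81.1 against 16.7 CPM, 4.87-fold higher (4.13 to 5.76). In the EP3-type chitinases, LOC_Os04g41680 had 68.4 against 5.13 CPM (13.3-fold, 10.2 to 17.7) and LOC_Os04g41620 had 149 against 24.4 CPM (6.12-fold, 5.36 to 7.0). These genes belong to families of similar copies, among which the authors' counting may have divided reads. Glucanase LOC_Os01g71340 had 46.8 CPM in mutant drought and 4.36 CPM in ZH11 drought, 10.7-fold higher (7.98 to 14.7). The osmotin genes LOC_Os12g43450 and LOC_Os03g46070 had log2 ratios of 2.5 and 1.90. PR4 gene LOC_Os11g37970 had 78.7 against 19.1 CPM (2.01), and LOC_Os11g37950, the PR4 gene with far more reads, had 1056 against 501 CPM (1.08). On the lower side was the thaumatin-like gene LOC_Os09g36580, with 4 reads in mutant drought and 41 in ZH11 drought (-1.92). The overexpressor drought levels of most of these genes, among them 61.7 CPM for LOC_Os06g51060, 8.49 CPM for LOC_Os04g41680 and 15.6 CPM for LOC_Os03g46070, were lower than in mutant drought. LOC_Os04g41620, at 74.0 CPM, and LOC_Os11g37970, at 26.1 CPM, were below mutant drought there too.

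The defence genes stood higher in the unstressed mutant as well. Under normal growth 73 genes of the group were counted, 27 of them 2-fold higher and 3 lower, with a median of 0.69, where 3.44% of all 22063 genes counted were higher, 4.06% were lower and 7.5% were apart either way. LOC_Os06g51060 had 33.2 CPM in mutant normal and 6.68 CPM in ZH11 normal. The normal and drought pairs share no library. Jasmonate and oxylipin genes showed 4 higher and 0 lower of 25 under drought, and 8 higher and 0 lower of 26 under normal growth. Highest under drought was the allene oxide synthase gene LOC_Os02g12680, for the first committed enzyme of jasmonate synthesis, at 8.83 against 1.71 CPM (2.08). NB-ARC resistance genes, which encode intracellular immune receptors, were 16 higher (6.3%) and 24 lower (9.45%) of 254 under drought, where 5.98% of all genes were higher and 6% lower. Under normal growth they were 19 higher and 10 lower of 350. The NB-ARC gene LOC_Os11g30210 was among the lowest genes of all, at 0.561 CPM in mutant drought and 9.40 CPM in ZH11 drought (-3.22).

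**Figure D3:**
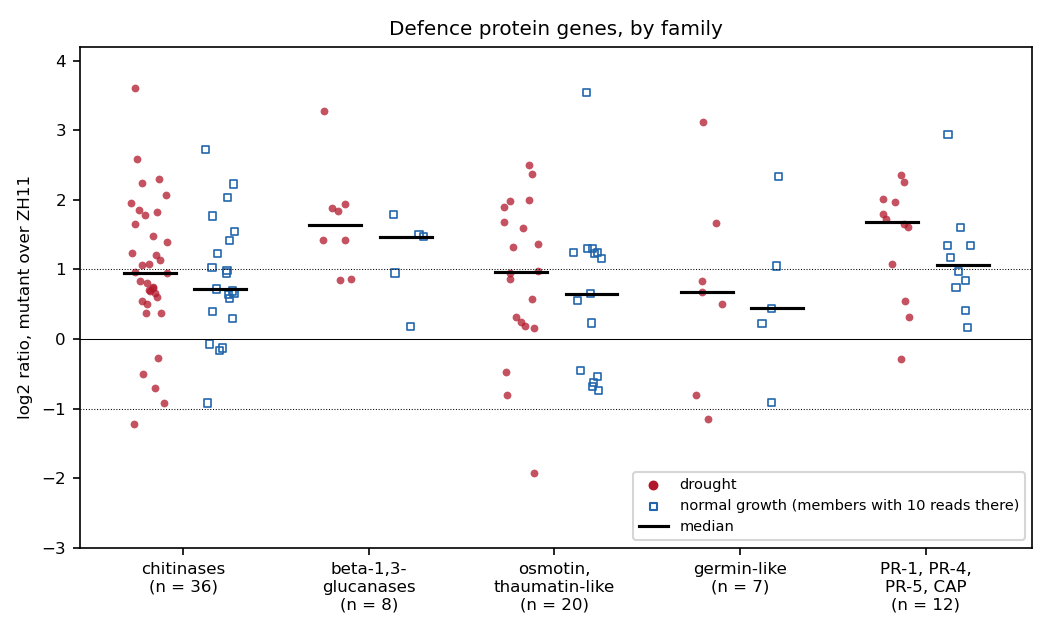
Log2 ratio of mutant over ZH11 (vertical axis) for defence protein genes by family, 1 point per gene, with the number counted under drought below each family. Filled red points are drought, open blue squares the same genes under normal growth where they had 10 reads there, and bars the medians; the drought medians lie between 0.67 for germin-like genes and 1.69 for PR and CAP genes.

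**Figure D4:**
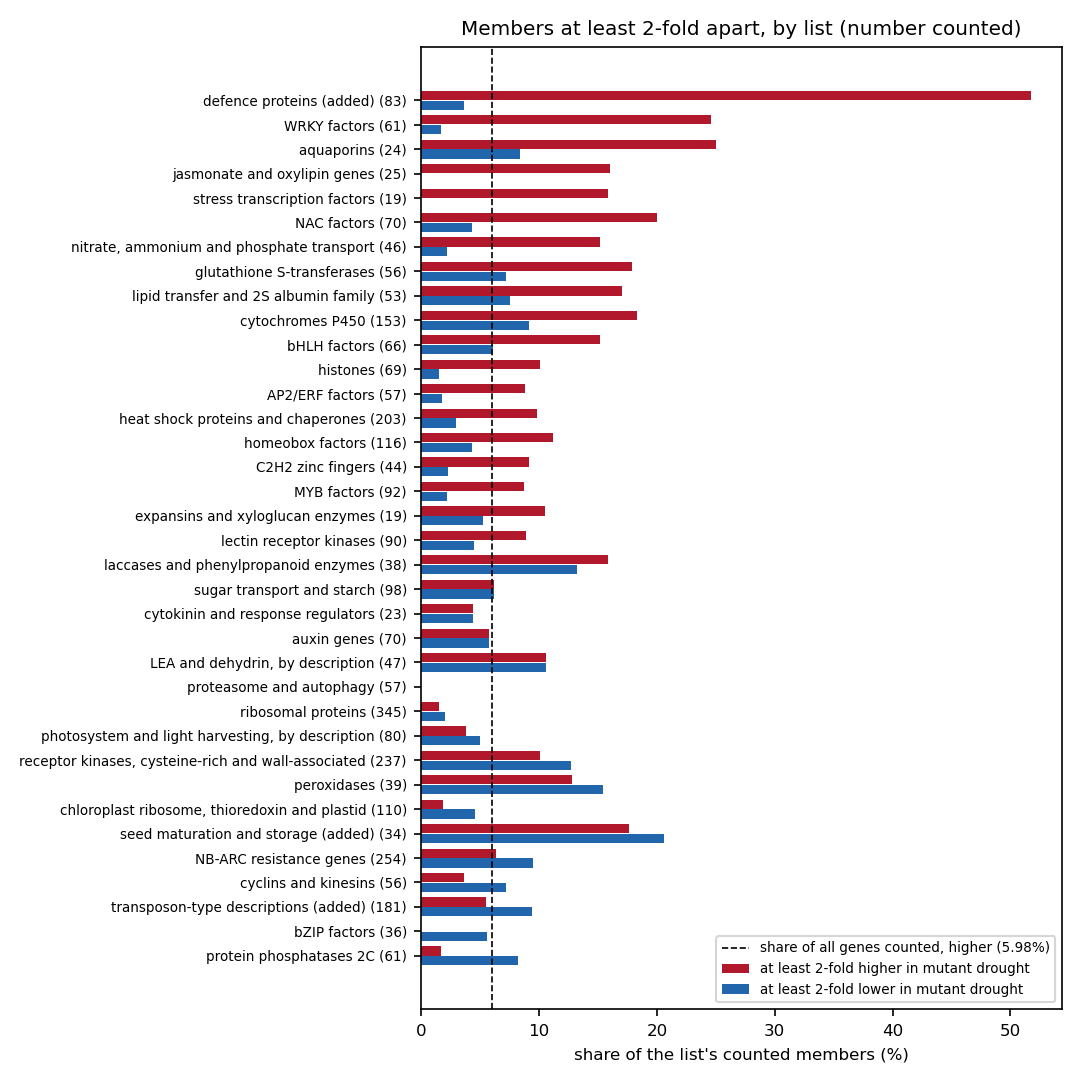
Share of counted members at least 2-fold higher (red) and at least 2-fold lower (blue) in mutant drought than in ZH11 drought, for each gene list with at least 19 counted members, whose number stands in parentheses. The dashed line marks the 5.98% of all genes that were higher (6% were lower); defence proteins (51.8%), aquaporins (25%) and WRKY factors (24.6%) have the longest red bars, and the lists marked as added were assembled after values had been seen.

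Among genes that were not also 4-fold higher under normal growth, the largest ratios lay outside the ABA lists. The receptor kinase gene LOC_Os04g56430, described as a cysteine-rich CRK10, had 485 CPM in mutant drought, 17.0 CPM in ZH11 drought and 9.78 CPM in overexpressor drought, 28.5-fold higher in the mutant than in ZH11 (24.7 to 33.0). It was hardly transcribed under normal growth, at 0.0681 CPM in the mutant and 0.0734 CPM in ZH11. LOC_Os02g14720, a RING/U-box protein of the type that attaches ubiquitin, had 228 CPM in mutant drought and 8.72 CPM in ZH11 drought, 26.2-fold higher (21.4 to 32.3). For that gene the overexpressor drought library held 270.1 CPM, so ZH11 drought was the low library of the 3. LOC_Os06g49190, a lipid transfer type protein, had 122 reads in mutant drought and 3 in ZH11 drought, 66.7-fold higher (22.3 to 328). The glycosyl hydrolase gene LOC_Os01g71670 had 47.7 against 3.50 CPM (3.59) and the second RING gene LOC_Os10g41660 had 52.1 against 4.36 CPM (3.44). The mannose-binding lectin gene LOC_Os01g24710, picked after its values were seen, had 6558 CPM in mutant drought, 928 CPM in ZH11 drought and 423 CPM in overexpressor drought, 7.06-fold higher in the mutant (6.92 to 7.21).

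Copper oxidases of the laccase type, known for work on lignin and other phenolics, were among the higher genes with a pair from chromosome 12. The laccase 7 genes LOC_Os12g15680 and LOC_Os12g15530 had 65.4 and 71.2 CPM in mutant drought against 5.56 and 6.24 CPM in ZH11 drought (3.44 and 3.41). Under normal growth LOC_Os12g15680 had 9.80 CPM and LOC_Os12g15530 0.477 CPM in the mutant, and both had 0 reads in ZH11. A laccase 7 gene on chromosome 1, LOC_Os01g63190, had 23.2 CPM in mutant drought and 13.8 CPM in ZH11 drought (0.73), and under normal growth 4.94 CPM in the mutant against 201 CPM in ZH11. Of 38 laccase and phenylpropanoid genes 6 (15.8%) were higher and 5 (13.2%) lower, where 5.98% of all genes were higher and 6% lower. The lowest, LOC_Os01g62490 (laccase 17), had 0.280 CPM in mutant drought, 5.56 CPM in ZH11 drought and 61.9 CPM in overexpressor drought, 19.8-fold lower in the mutant than in ZH11 on 2 and 65 reads (5.27 to 167).

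Beside the cupin and seed maturation genes, the lowest described genes had descriptions of many kinds. LOC_Os09g36350, an endoglucanase-type glycosyl hydrolase 9B7, had 0.421 CPM in mutant drought, 10.3 CPM in ZH11 drought and 31.4 CPM in overexpressor drought, 24.4-fold lower in the mutant than in ZH11 on 3 and 120 reads (8.15 to 119.9). LOC_Os03g22050, described as SOS3-interacting protein 1, a kinase of calcium signalling, had 4.07 against 34.6 CPM (-2.94). LOC_Os04g43710, a phosphoenolpyruvate carboxylase kinase, had 4.70 against 24.6 CPM (-2.27). The F-box gene LOC_Os02g46690 had 2.24 against 18 CPM (-2.75), and LOC_Os02g52220, a pentatricopeptide repeat gene, had 7.43 against 42.2 CPM (-2.43). LOC_Os08g43370, described as CoA transferase-like, stood at -3.17. LOC_Os07g33480 (a cytochrome P450), LOC_Os07g27300 (a LUC7 splicing-type protein) and LOC_Os06g18670 (UDP-glucosyl transferase 88A1) stood at -2.36, -2.36 and -2.26. Of the lowest genes without a description, LOC_Os07g32710, LOC_Os02g56500 and LOC_Os02g15740 stood at -2.87, -2.49 and -2.36.

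Leaf function genes mostly stayed within 2-fold. Rubisco, activase and light-harvesting genes were 1 higher and 0 lower of 12, the higher one being the small subunit gene RbcS LOC_Os12g17600 at 83.3 CPM in mutant drought and 34.4 CPM in ZH11 drought (1.26). Under normal growth the same gene had 7744 CPM in the mutant and 11031 CPM in ZH11, so both drought libraries held it far below the unstressed level. All 6 chlorophyll breakdown and senescence genes were above ZH11 with TMM (0.03 to 0.96, median 0.38), though OsNAP was below it at -0.17 with total reads. NOL, which acts in chlorophyll b degradation, was the highest of them at 64.4 against 32.9 CPM. None of the 8 chlorophyll synthesis genes was 2-fold apart. Of genes described as photosystem or light harvesting, 3 of 80 (3.75%) were higher and 4 (5%) lower. Over all genes 5.98% were higher and 6% lower. The glyoxylate cycle genes, which turn fatty acids to sugar precursors in germinating seeds and senescing leaves, were both above ZH11: isocitrate lyase (ICL) had 2174 against 1062 CPM (1.03, and 0.83 with total reads) and malate synthase (MLS) 762 against 433 CPM (0.82). The oleosin OLE18, a seed oil body protein, had 0 reads in mutant drought and 11 in ZH11 drought, at least 2.24-fold lower with a floor of 3 reads per library.

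In the circadian clock the morning and evening partners lay on opposite sides. OsLHY, the morning MYB factor, had 337 CPM in mutant drought and 160.4 CPM in ZH11 drought, 2.10-fold higher (1.98 to 2.23). OsTOC1, an evening pseudo-response regulator, had 9.32 CPM in mutant drought and 36.5 CPM in ZH11 drought, 3.89-fold lower (3.00 to 5.11). The other 8 clock genes were within 2-fold, OsGI at 1337 against 1595 CPM. So 1 of 10 clock genes (10.0%) was 2-fold higher and 1 (10.0%) lower, where 5.98% of all genes were higher and 6% lower. Under normal growth neither OsLHY nor OsTOC1 was 2-fold apart, at log2 ratios of -0.30 and 0.18. The labels give no hour of collection for any library, so a difference in time of day between libraries was not tested.

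Heat shock proteins and chaperones were 20 higher (9.85%) and 6 lower (2.96%) of 203, where 5.98% of all genes were higher and 6% lower. The small plastid heat shock protein gene LOC_Os03g14180 had 92.6 CPM in mutant drought and 17.1 CPM in ZH11 drought (2.40). LOC_Os01g39020, described as heat shock factor A2, from a class of factors that activate such genes, was on the other side. It had 42.6 against 180.2 CPM, 4.23-fold lower (3.75 to 4.78). Aquaporins, the channels for water across membranes, were 6 higher (25%) and 2 lower (8.33%) of 24, with a median of 0.63. Their highest member with 50 reads, LOC_Os02g57720 (described as PIP1;4), had 29.6 CPM in mutant drought, 8.29 CPM in ZH11 drought and 7.01 CPM in overexpressor drought (1.77). Cytochromes P450 were 28 higher (18.3%) and 14 lower (9.15%) of 153, and glutathione S-transferases, which conjugate toxic compounds, 10 (17.9%) and 4 (7.14%) of 56. Nitrate, ammonium and phosphate transporters were 7 higher (15.2%) and 1 lower (2.17%) of 46, led by the ammonium transporter LOC_Os03g62200 at 34.5 against 10.7 CPM (1.65).

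Ribosomal protein genes were 5 higher (1.45%) and 7 lower (2.03%) of 345, below the 5.98% and 6% of all genes, and none of 57 proteasome and autophagy genes was 2-fold apart. None of the 7 housekeeping genes or 7 antioxidant enzyme genes was 2-fold apart, with medians of 0.08 and 0.43, the housekeeping median being -0.12 with total reads. Some other lists, but not all, were near the 12% of all genes that were 2-fold apart either way. Among those near it, cyclins and kinesins were 2 higher and 4 lower of 56, sugar transport and starch genes 6 and 6 of 98, and auxin genes 4 and 4 of 70. Histone genes were 7 higher (10.1%) and 1 lower (1.45%) of 69.

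A set of genes stood 4-fold higher in the mutant in both conditions. Over 18505 genes counted in both, the drought and normal log2 ratios had a Pearson correlation of 0.22 and a Spearman correlation of 0.10 across genes, which are not independent replicates. Of the 1211 genes 2-fold higher under drought, 955 had enough reads to be counted under normal growth. There 195 (16.1% of the 1211, 20.4% of the 955) were 2-fold higher too, and 57 were 2-fold lower. The 195 were 25.7% of the 760 genes higher there. Of the 1215 lower genes, 1010 were counted under normal growth. There 75 (6.17% of the 1215, 7.43% of the 1010) were lower too, and 8 were higher. The 75 were 8.38% of the 895 lower there. Among all 22063 genes counted under normal growth, 3.44% were higher and 4.06% lower. At 4-fold, 43 genes were higher in both conditions and 2 were lower in both. Of the 159 and 76 genes 4-fold apart under drought, 106 and 54 were counted under normal growth.

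Of the 43 genes, 18 had no description and 9 had 3 reads or fewer in each ZH11 library. LOC_Os07g06834 had 36.5 CPM in mutant drought and 0.0855 CPM in ZH11 drought, and 46.3 CPM in mutant normal against 0.147 CPM in ZH11 normal (5.98 and 6.18), with 1 read in the ZH11 drought library, 426-fold higher (75.9 to 16907). LOC_Os08g14195 had 54.5 against 0.598 CPM under drought (5.65) and LOC_Os12g24050 had 58.1 against 0.855 CPM (5.44). These 3 were near the mutant level in the overexpressor, at 39.2, 50.4 and 47.1 CPM under drought. The overexpressor had at least 50% of the mutant level in both conditions for 15 of the 43 genes, so for these ZH11 was low against both other lines. For 17 of the 43 the overexpressor had at most 25% of the mutant level in both conditions. Examples are LOC_Os05g15220, with 104 reads in mutant drought and 0 in ZH11 drought, at least 56.9-fold higher, and LOC_Os10g23310, a hydroxycinnamoyl transferase type gene, with 119.9 CPM in mutant drought, 15.0 CPM in ZH11 drought and 5.04 CPM in overexpressor drought. The basic chitinase LOC_Os06g51050 and the osmotin LOC_Os03g45960 also belong to the 43. The pair lower in both conditions was the glycosyl hydrolase LOC_Os09g36350, at 0.204 CPM in mutant normal and 20.3 CPM in ZH11 normal, and the glucosyl transferase LOC_Os06g18670, at 82.2 against 371 CPM.

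**Figure D5:**
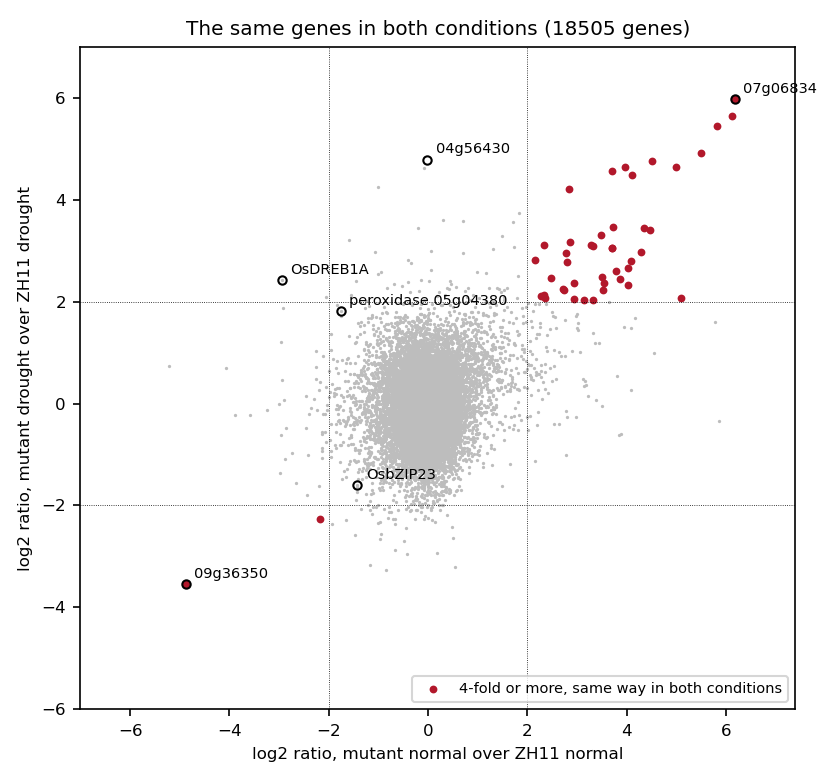
Log2 ratio of mutant drought over ZH11 drought (vertical axis) against that of mutant normal over ZH11 normal (horizontal axis) for the 18505 genes counted in both pairs, 1 point per gene. Dotted lines mark 4-fold and red points the 45 genes past it the same way in both; 43 lie at the upper right and 2 at the lower left, and OsDREB1A lies at the upper left.

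Set against a drought response measured in the overexpressor alone, which shares no library with the comparison, the mutant differences were spread unevenly. Of 991 genes at least 4-fold lower in overexpressor drought than in overexpressor normal, 145 were 2-fold higher in mutant drought than in ZH11 drought and 52 lower, with a median of 0.18. Of 1746 genes at least 4-fold higher in overexpressor drought, 166 were higher and 182 lower, with a median of 0.13. Among 11996 genes within 2-fold in the overexpressor, 380 were higher and 609 lower, with a median of -0.05. Over all 19336 genes that could be placed this way, 5.17% were higher and 5.91% lower. The class lower in overexpressor drought held 14.6% higher and 5.25% lower, the class higher there 9.51% and 10.4%, and the class within 2-fold 3.17% and 5.08%.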

How the data were processed

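RNA was sequenced from 6 groups of rice seedlings, 1 library each. Per the file headers, the deposited RNA tables hold read numbers per gene, which come in steps of 0.5 and are treated as estimated counts, and the authors' FPKM. Per the submitters' processing notes, TopHat2 2.0.8, Trimmomatic 0.32 and edgeR 3.6.0 were used; their roles, the counter, the genome build and the annotation are not given in the sources used here. Lines with the same gene name were summed, which took 56001 lines to 55986 genes. TMM factors were computed in edgeR 4.0.16 (R 4.3.3) over the 6 libraries on 21463 genes kept by filterByExpr, from rounded counts. Scaled counts (CPM) plus 0.5 gave log2 ratios, and fold intervals are exact conditional 95% (Clopper-Pearson) intervals. A floor of 3 reads per library bounds ratios against 0. The ratio and its interval were checked on simulated data. There were 17 lists of loci, their symbols supplied from memory of published rice work, and 34 lists matched on description words; 8 further description lists, families of defence proteins among them, and 12 loci were added after values had been seen. Named genes are the 12 described and 3 undescribed genes with the largest ratios each way among those with at least 100 reads, listed loci, and the extreme members with 50 reads of each description list. The comparison, its members and all lists were chosen with earlier results of these data known. Alternatives were other scalings (DESeq2 1.42.0 among them), offsets, filters, folds and the FPKM. The ChIP peak lists were not used here, since gene positions on their build were not to hand.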

Additional observations from a re-analysis of the deposited data

Results flagged for a closer look

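In 4 named genes the mutant stood on opposite sides of ZH11 in the drought and normal conditions, at least 2-fold each time. With 1 library per group the difference between conditions was not tested in any of them. OsDREB1A (LOC_Os09g35030) had a log2 ratio of 2.42 under drought and -2.95 under normal growth, where the mutant had 0.0681 CPM and ZH11 3.89 CPM. The peroxidase gene LOC_Os05g04380 had 1.82 under drought (13.0 CPM in the mutant, 3.33 CPM in ZH11) and -1.75 under normal growth (11.7 CPM in the mutant, 40.7 CPM in ZH11). The C2H2 zinc finger gene LOC_Os02g57790 had 1.13 under drought and -1.20 under normal growth. The gibberellin 3-oxidase gene LOC_Os01g08220, for a late step of gibberellin synthesis, had 1.08 under drought and -1.28 under normal growth. All 4 were lower in overexpressor drought, at 1.78, 3.65, 1.38 and 0.247 CPM in that order, than in mutant drought.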

How the results depend on the processing

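The count of genes 2-fold higher, 1211, became 796 with total reads, 741 with an offset of 2 CPM, 733 with at least 50 reads and 722 with FPKM. The count lower, 1215, became 354 with an offset of 2 CPM and 544 with at least 50 reads. At 1.5-fold the counts were 3045 higher and 3307 lower, at 4-fold 159 and 76. Genes higher made up 67.7% of the 2-fold genes with the offset of 2 CPM and 57.4% with at least 50 reads. The OsbZIP23 log2 ratio was -1.80 with total reads and -1.35 with FPKM. The median of all genes shifted by -0.18 with total reads and by -0.17 with FPKM. Of 141 named genes 2-fold apart, 129 to 141 stayed so the same way under the 6 alternatives in scaling, offset and unit. None changed direction, but an offset cannot change the sign of a ratio. The other scalings of the reads moved the median by -0.18 to 0.04, too little to take a 2-fold gene past 0. Of 59 list medians, 13 changed sign with total reads and 12 with FPKM. The alternatives on peaks near gene starts were not run. No paired analysis was possible because each group had 1 library. Depth limits the genes with 10 to 50 reads, of which 7.39% were 2-fold higher and 10.4% lower, against 5.42% and 1.91% of genes with at least 500 reads.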

Other observations

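The read number and the FPKM of OsbZIP23 did not give the same mutant share. Read number over FPKM implies a transcript length, which was set to 1.00 in ZH11 normal and divided by each library's median over 6981 genes with at least 100 reads in all 6 libraries. For OsbZIP23 it was 0.73 in mutant drought and 0.80 in mutant normal, against 1.00 in ZH11 drought, and 0.89 in overexpressor drought and 1.04 in overexpressor normal. In mutant drought 82.2% of those genes lay within 1% of their ZH11 normal value, and 20 genes (0.286%), OsbZIP23 included, had an implied length as short as that of OsbZIP23. What the shorter value comes from was not tested.

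Genes with transposon-type descriptions, a list assembled after values had been seen, were 10 higher (5.52%) and 17 lower (9.39%) of 181 under drought. Their median was -0.26. Over all genes 5.98% were higher and 6% lower. Both LOC_Os12g24050 at 5.44 and LOC_Os05g15220 at 4.91, which carry such descriptions, belong to the genes that were also 4-fold higher under normal growth. Peroxidases were 5 higher (12.8%) and 6 lower (15.4%) of 39, and lectin receptor kinases 8 higher (8.89%) and 4 lower (4.44%) of 90. Lipid transfer and 2S albumin family genes were 9 higher (17%) and 4 lower (7.55%) of 53. Gibberellin genes were 2 higher (20.0%) and 0 lower of 10, and terpene synthases 1 higher (11.1%) and 2 lower (22.2%) of 9.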
